A study of Mus musculus with 6 samples.

Results

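The 4 genes described here encode the activators of the mammalian circadian clock, the CLOCK and BMAL proteins: Clock and its paralog Npas2, and Arntl (Bmal1) and its paralog Arntl2 (Bmal2). They were taken by symbol and Entrez Gene ID from the deposited gene counts, which list 27179 genes, and all 4 had counts in every library. RNA-seq was performed on 3 immortalized mouse embryonic fibroblast (MEF) lines of C57BL/6 strain, kept in DMEM with fetal bovine serum and harvested near confluence with no synchronizing treatment described, and 2 independent RNA preparations were sequenced per line. Cry/Per_KO cells carry cry1-/-, cry2-/-, per1-/- and per2-/- alleles. Cry/Per/Nr1d_KO cells carry these and nr1d1-/- and nr1d2-/- alleles, and are a single clone derived from Cry/Per_KO cells by CRISPR mutation of both Nr1d genes. Per/Nr1d_KO cells carry per1-/-, per2-/-, nr1d1-/- and nr1d2-/- alleles, were made separately with the same Nr1d guides, and keep both Cry genes. All 3 lines lack PER1 and PER2, no line with an intact clock is analysed here, and with a single line per genotype the genotype cannot be told apart from other differences between lines.

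The genotype given for a library and the name of its deposited count file disagree for 4 of the 6 libraries. The pair labelled Cry/Per/Nr1d_KO carries the short name of Cry/Per_KO on its files, and the pair labelled Cry/Per_KO carries that of Cry/Per/Nr1d_KO. Groups here follow the genotype labels: the CPN-labelled libraries are those labelled with the Cry/Per/Nr1d_KO genotype and the CP-labelled libraries those labelled with the Cry/Per_KO genotype. Under the other reading, values stay with their libraries, the difference between these pairs changes sign, and each comparison of Per/Nr1d_KO with either pair takes the other pair's name. The same 3 pairs are compared under either naming. The study reports Arntl, Cry1, Nr1d1, Nr1d2, Per1 and Per3 RNA as lower in Cry/Per_KO than in Cry/Per/Nr1d_KO. By the genotype labels all of these were higher in Cry/Per_KO, and by the file names all were lower. The study also places Per2, Bhlhe40 and Dbp RNA in Cry/Per_KO below Cry/Per/Nr1d_KO and above Per/Nr1d_KO. In the CPN-labelled, CP-labelled and Per/Nr1d_KO libraries, Dbp averaged 711, 1717 and 158 normalized counts. Per2 averaged 4932, 6736 and 1046, and Bhlhe40 5092, 8418 and 2228. The study's order is that of the file names for each, and not that of the genotype labels. The genotype labels may thus be the exchanged ones. No direction between the conflicting pairs is therefore given here as an effect of the Nr1d mutations. All 6 mutated genes were read at 1004 to 9337 normalized counts in every library, so none was missing where a label gives it as mutated. Normalized counts are counts scaled to a common library size by edgeR's TMM method. The libraries held 53764390 to 85927236 counts. Of 12 fibroblast markers, 8 had a mean of at least 100 normalized counts in each line. The sum over the 12 was 947991 to 998277 normalized counts in the CPN-labelled libraries, 867297 to 888679 in the CP-labelled ones and 1713550 to 1731180 in Per/Nr1d_KO. Lum was at 0 in the CP-labelled pair and in Per/Nr1d_KO, and Thy1 was at 0 in Per/Nr1d_KO. Both were low elsewhere too, as Lum averaged 9.33 and Thy1 4.22 in the CPN-labelled pair. In the CPN-labelled, CP-labelled and Per/Nr1d_KO libraries, Col3a1 averaged 819, 292 and 43303 normalized counts. S100a4 ran the other way in Per/Nr1d_KO, at 63132, 28657 and 8870. Of the 8, 4 were called higher (adjusted p under 0.05 and a log2 difference beyond 0.81) and 4 lower in Per/Nr1d_KO against the CPN-labelled pair, 3 and 3 against the CP-labelled pair, and 0 and 2 between the CP- and CPN-labelled pairs, beside 20.7%, 29.0% and 16.8% of all tested genes called. The part of these differences between lines in the values below was not tested. Epithelial, endothelial, blood cell, neural and muscle marker lists summed to at most 280.1 normalized counts in any library, of which Cd68 made up 276. Other low markers also differed between lines. In the CPN-labelled, CP-labelled and Per/Nr1d_KO libraries, Esrp1 averaged 147, 10.5 and 0.395 normalized counts. Cdh1 averaged 17.9, 9.98 and 105, and Ttn 59.4, 115 and 40.7.

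CLOCK or NPAS2 pairs with BMAL1 or BMAL2 through basic helix-loop-helix (bHLH) and PAS domains, and the pair binds E-box sequences to activate Per, Cry and Nr1d genes. PER and CRY proteins inhibit the pair, and NR1D proteins repress Arntl transcription through ROR elements (ROREs), sites shared with the activating ROR receptors. NPAS2 can replace CLOCK in several tissues, with prominent expression in forebrain, and BMAL2 can take the place of BMAL1 in some settings.

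The promoter windows of the 2 genes on which the results turn, Arntl and Npas2, are shown first. RefSeq windows of 300 bases on GRCm38.p6, from 250 bases before a transcript start to 50 after it, were searched on both strands for 5 motifs: the RORE-type TAGGTCA and TAGGTTA, the E-box CACGTG, its variant CACGTT, and the D-box TTATGNAA. TAGGTTA was added after the Arntl window was seen. The second Arntl window, at chr7:113207261-113207560 on the plus strand, holds TAGGTTA from base 245, at the transcript start, and TAGGTCA from base 281, downstream of it, both in capitals below.
Arntl: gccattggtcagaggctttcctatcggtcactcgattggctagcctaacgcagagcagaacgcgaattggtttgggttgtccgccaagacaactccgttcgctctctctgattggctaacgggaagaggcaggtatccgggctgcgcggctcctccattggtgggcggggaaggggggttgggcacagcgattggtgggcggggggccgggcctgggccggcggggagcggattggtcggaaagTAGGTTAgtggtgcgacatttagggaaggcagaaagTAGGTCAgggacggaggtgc
Npas2: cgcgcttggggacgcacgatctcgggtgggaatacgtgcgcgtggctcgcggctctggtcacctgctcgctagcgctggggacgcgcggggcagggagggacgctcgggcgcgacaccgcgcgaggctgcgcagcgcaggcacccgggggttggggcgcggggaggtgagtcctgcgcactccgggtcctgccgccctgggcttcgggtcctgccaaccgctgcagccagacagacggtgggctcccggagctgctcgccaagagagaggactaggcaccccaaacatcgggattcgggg
The Npas2 window, at chr1:39194022-39194321 on the plus strand, holds none of these letters, nor do the 3 windows of Clock or that of Arntl2. Among 32851 windows of this length, 2.61% hold TAGGTCA, 1.44% TAGGTTA and 0.0487% both, while CACGTG is in 7.15%, CACGTT in 4.68% and TTATGNAA in 3.38%. Such a match is a description of letters and not evidence of a bound site.

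The 4 genes were read at very different levels. Per length (RPKM, reads scaled to protein-coding exon length and library size), the mean over all 6 libraries was 16.3 for Clock, 9.57 for Arntl, 2.91 for Arntl2 and 0.475 for Npas2. Among 11198 tested genes with a length, Clock was at percentile 58.8, Arntl at 42.4, Arntl2 at 16.8 and Npas2 at 1.69. The order Clock, Arntl, Arntl2, Npas2 held in each library. The plot of normalized counts by library shows a separate pattern over the lines for each gene.

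**Figure D1:**
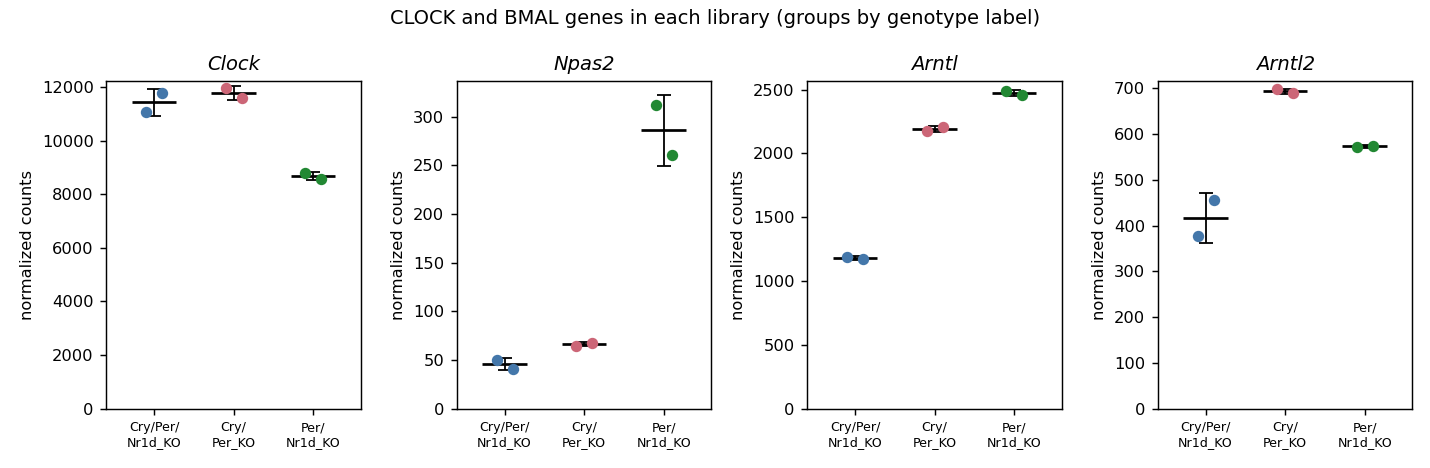
Normalized counts (y axis, linear from 0) of each gene in the 3 lines by genotype label (x axis); points are the 2 libraries of a line, the long bar their mean and the whisker 1 SD. Clock is lowest and Npas2 highest in Per/Nr1d_KO, Arntl is lowest in the CPN-labelled pair, and Arntl2 is highest in the CP-labelled pair.

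Clock (Entrez 12753, GRCm38 chr5:76209868-76305603, minus strand) encodes the subunit that carries histone acetyltransferase activity. It gave 11072 and 11799 normalized counts in the CPN-labelled libraries, 11977 and 11613 in the CP-labelled ones, and 8794 and 8565 in Per/Nr1d_KO. The first pairs overlap, and both Per/Nr1d_KO libraries lie below all others. Clock differed by 0.045 on the log2 scale between the CP-labelled libraries and the CPN-labelled ones (95% interval -0.052 to 0.14, edgeR quasi-likelihood test with Benjamini-Hochberg adjusted p = 0.379). In Per/Nr1d_KO it was lower by a log2 difference of -0.40 (SE 0.046, edgeR adjusted p = 1.2e-06) against the CPN-labelled pair and of -0.44 (SE 0.046, edgeR adjusted p = 2.6e-07) against the CP-labelled pair. Both falls were short of a called change, defined by an adjusted p under 0.05 and a log2 difference beyond 0.81 in either direction (the fold limit). In bulk RNA, fewer cells with the transcript and less transcript per cell cannot be told apart.

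Npas2 (Entrez 18143, GRCm38 chr1:39193702-39363240, plus strand), the CLOCK paralog, was the least abundant and differed most in the comparisons with Per/Nr1d_KO. It gave 49.7 and 41.1 normalized counts in the CPN-labelled libraries, 64.6 and 67.8 in the CP-labelled ones, and 312 and 260.4 in Per/Nr1d_KO. Both Per/Nr1d_KO libraries lie far above the other 4, and no pair overlaps another. These values rest on 37 to 69 raw counts in the 4 low libraries and on 246 and 330 in Per/Nr1d_KO. The mean of all 6 libraries, 133, passed the limit of 100 normalized counts for testing only through Per/Nr1d_KO, since the other 4 average 55.8.

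Npas2 rose 6.16-fold in Per/Nr1d_KO against the CPN-labelled pair (log2 2.62, SE 0.16, edgeR adjusted p = 9.4e-10). Against the CP-labelled pair it rose 4.27-fold (log2 2.09, SE 0.16, edgeR adjusted p = 5.0e-09). With the limit lowered to a mean of 10, which Npas2 passes in each line, these log2 differences were 2.62 and 2.09 (edgeR adjusted p = 5.9e-11 and 5.2e-10). They were not extreme among all genes, as 338 and 611 of the 11934 tested genes had a larger value. The CP-labelled pair exceeded the CPN-labelled pair by 0.53 (95% interval 0.072 to 0.99, edgeR adjusted p = 0.0353), which was under the fold limit. DESeq2 gave this last difference an adjusted p of 0.0713.

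Arntl (Entrez 11865, GRCm38 chr7:113178471-113314126, plus strand) encodes BMAL1, the partner without which the clock stops. It gave 1191.5 and 1171 normalized counts in the CPN-labelled libraries, 2176 and 2208 in the CP-labelled ones, and 2493 and 2455 in Per/Nr1d_KO. The 3 pairs do not overlap, and the largest step lies between the first pair and the other 4 libraries. Arntl was 1.86-fold higher in the CP-labelled libraries than in the CPN-labelled ones (log2 0.89, SE 0.058, edgeR adjusted p = 2.4e-09). It was 2.09-fold higher in Per/Nr1d_KO than in that pair (log2 1.07, SE 0.058, edgeR adjusted p = 1.6e-10). Between Per/Nr1d_KO and the CP-labelled pair the log2 difference was 0.17 (95% interval 0.055 to 0.29, edgeR adjusted p = 0.0094), under the fold limit. Under edgeR's glmTreat test against the 0.81 limit itself, the first difference lost its call (glmTreat adjusted p = 0.191). With the names of the 2 conflicting pairs exchanged, Arntl would be lower in Cry/Per_KO than in Cry/Per/Nr1d_KO (log2 -0.89), and its call in Per/Nr1d_KO would stand against Cry/Per_KO. By the genotype labels the lower Arntl level was in the pair said to lack NR1D, a repressor of Arntl. By the file names it was in the pair said to keep NR1D. The study reports less Arntl RNA and BMAL1 protein in Cry/Per_KO than in Cry/Per/Nr1d_KO. It reports similar Arntl RNA in Per/Nr1d_KO and Cry/Per/Nr1d_KO. For Arntl RNA, these are the directions that the file names give, and not those of the genotype labels. Every direction given here between the conflicting pairs, and every name of the pair set against Per/Nr1d_KO, rests on the genotype labels.

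Arntl2 (Entrez 272322, GRCm38 chr6:146794729-146833529, plus strand) encodes BMAL2. It gave 377 and 455 normalized counts in the CPN-labelled libraries, 698 and 690.3 in the CP-labelled ones, and 572 and 575 in Per/Nr1d_KO. The 3 pairs do not overlap, with the CP-labelled pair on top, and the CPN-labelled libraries have an SD of 55.1 against 5.35 and 2.52 in the others. The log2 difference between the CP- and CPN-labelled libraries was 0.74 (SE 0.095, edgeR adjusted p = 4.4e-06), a fold of 1.67. That fold is under the limit, and without the second CPN-labelled library the difference was 0.88 and passed it. Per/Nr1d_KO exceeded the CPN-labelled pair by 0.47 (SE 0.097, edgeR adjusted p = 0.00043). It was below the CP-labelled pair, with a log2 difference of -0.27 (SE 0.092, edgeR adjusted p = 0.0125). About 0.893% of the 50-base stretches of Arntl2 transcripts, the read length, occur in other genes, and none of those of the other 3 do.

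Over the 4 genes, Arntl alone was called between the CP- and CPN-labelled libraries, where 16.8% of all tested genes were called, 7.86% higher and 8.95% lower. Npas2 and Arntl were called higher in Per/Nr1d_KO than in the CPN-labelled pair, beside 20.7% of tested genes called in either direction, 11.3% higher and 9.35% lower. Npas2 alone was called between Per/Nr1d_KO and the CP-labelled pair, where 29.0% of tested genes were called, 15.2% higher and 13.8% lower. At an adjusted p under 0.05 without a fold limit, the count of the 4 was 3, 4 and 4 in these comparisons, beside 76.4%, 75.8% and 82.1% of tested genes. Libraries did not overlap for 3, 4 and 4 of the genes, beside 86.4%, 87.1% and 90.4%. The comparisons share libraries, so their values are set side by side only.

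Chromosomes as a whole differed between the lines, and the part of this in the 4 genes was not tested. The 838 tested genes of chromosome 7, which holds Arntl, had a median log2 difference of -0.27 between the CP- and CPN-labelled libraries, opposite in sign to Arntl. On chromosome 1, which holds Npas2, the median of 674 genes was 0.28 in Per/Nr1d_KO against the CPN-labelled pair and 0.26 against the other pair, small beside the rise of Npas2. The median of the 560 genes of chromosome 6 was 0.34 and -0.41 in the 2 comparisons with the CP-labelled pair, the same signs as Arntl2. With the median subtracted, Arntl2 differed by 0.40 and 0.14 there, and the latter is a change of sign. On chromosome 5 the medians of 760 genes were 0.090, 0.17 and 0.083, and Clock was below them in each comparison.

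**Figure D2:**
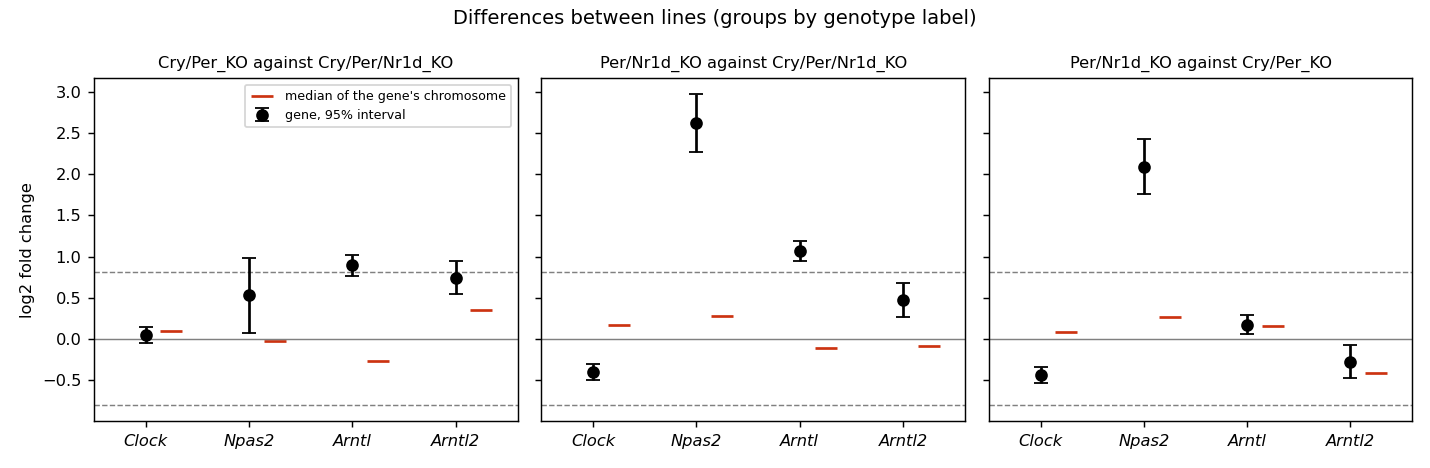
Log2 fold changes (y axis) of the 4 genes (x axis) in the 3 comparisons by genotype label, with 95% intervals; dashed lines mark the limits at 0.81 and -0.81 and red bars the median of all tested genes on the gene's chromosome. Npas2 stands at 2.62 and 2.09 in the comparisons with Per/Nr1d_KO, and Arntl at 0.89 and 1.07 against the CPN-labelled pair.

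Paralog use was compared as ratios of RPKM within a library, where library size cancels. Npas2 made up 1.04% and 0.809% of the summed Clock and Npas2 level in the CPN-labelled libraries, 1.25% and 1.35% in the CP-labelled ones, and 7.67% and 6.65% in Per/Nr1d_KO. Npas2 was thus the minor paralog in each library, and its share was highest in both Per/Nr1d_KO libraries. The Npas2 to Clock ratio was 8.30-fold and 5.85-fold higher in Per/Nr1d_KO than in the CPN- and CP-labelled pairs. There Npas2 was higher and Clock lower. In each comparison the exact two-sided permutation test over libraries gave p = 0.33, the smallest that 2 libraries against 2 can give.

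Arntl2 made up 25.1% and 29.1% of the summed Arntl and Arntl2 level in the CPN-labelled libraries, 25.3% and 24.8% in the CP-labelled ones, and 19.5% and 19.9% in Per/Nr1d_KO. Its share was lowest in Per/Nr1d_KO, and the other pairs overlap (exact permutation p = 0.667). The Arntl2 to Arntl ratio differed by -0.60 and -0.45 on the log2 scale between Per/Nr1d_KO and the CPN- and CP-labelled pairs (exact permutation p = 0.33 each). Per/Nr1d_KO thus had the largest Npas2 share and the smallest Arntl2 share.

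The ratio of summed Clock and Npas2 RPKM to summed Arntl and Arntl2 RPKM was 2.19 and 2.24 in the CPN-labelled libraries, 1.30 and 1.25 in the CP-labelled ones, and 0.957 and 0.932 in Per/Nr1d_KO. The pairs do not overlap (exact permutation p = 0.33 each). Its level depends on the exon length used: with all annotated exons the means were 3.66 ± 0.034 (SD, n = 2), 2.11 ± 0.055 and 1.61 ± 0.033, in the same order but above 1 in each line. These are RNA ratios and give no protein stoichiometry.

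**Figure D3:**
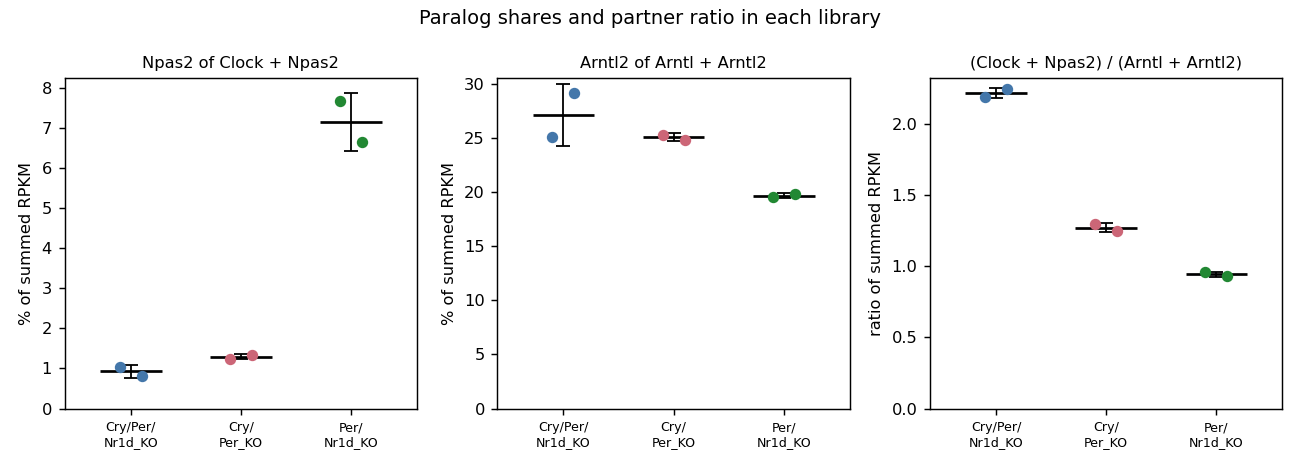
Share of Npas2 in summed Clock and Npas2 RPKM (left, %), share of Arntl2 in summed Arntl and Arntl2 RPKM (middle, %) and ratio of these sums (right) for each library by genotype label; bars are means and whiskers 1 SD of 2 libraries. In Per/Nr1d_KO the Npas2 share is 6.65% to 7.67%, the Arntl2 share is lowest and the ratio of sums is below 1.

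Of 15 other bHLH-PAS genes, which encode sensors, their partners and coactivators of this family, 12 passed the filter. Between the CP- and CPN-labelled libraries, 5 of them were called lower and 0 higher, with a median log2 difference of -0.40 (all tested genes -0.0033). In Per/Nr1d_KO, 3 were called higher and 3 lower against the CPN-labelled pair (median 0.25, all genes 0.011), and 6 higher and 2 lower against the CP-labelled pair (median 0.75, all genes 0.035). Among the genes called lower in each of the first 2 comparisons is Epas1, which passed the limit of 100 normalized counts only through the CPN-labelled libraries. Over all tested genes, 8.95% were called lower and 7.86% higher in the first comparison, 11.3% higher and 9.35% lower in the second, and 15.2% higher and 13.8% lower in the last. Arntl stood opposite to its relatives Arnt and Arnt2, the general partners of this family, between the first pairs: Arnt differed by -0.82 and Arnt2 by -1.21 (both called). The chromosome medians there were -0.65 for Arnt, on chromosome 3, and -0.27 for Arnt2, which leaves Arnt at -0.18 and Arnt2 at -0.94. In Per/Nr1d_KO both had the same sign as Arntl. They were at 0.31 and 0.41 against the CPN-labelled pair (neither called). Against the CP-labelled pair they were at 1.13 and 1.62 (both called), with Arntl at 0.17.

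The dioxin receptor gene Ahr was at 2699 ± 77.9, 1190 ± 69.5 and 8719 ± 297 normalized counts (mean ± SD, n = 2) in the CPN-labelled, CP-labelled and Per/Nr1d_KO libraries. Like Npas2 it was highest in Per/Nr1d_KO, as was its repressor Ahrr at 147, 96.9 and 491. Epas1, which encodes HIF-2α, was highest instead in the CPN-labelled libraries, at 444 against 58.2 and 90.2. Sim2, a neural regulator, had 0 counts in both CP-labelled libraries and 875 and 1064 normalized counts on average in the other lines. With 3 counts per library as the upper limit for a count of 0, Sim2 was at least 279-fold lower there than in the CPN-labelled pair. Npas4 was called in 0 comparisons (log2 differences -0.14, -0.15 and -0.0069).

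**Figure D4:**
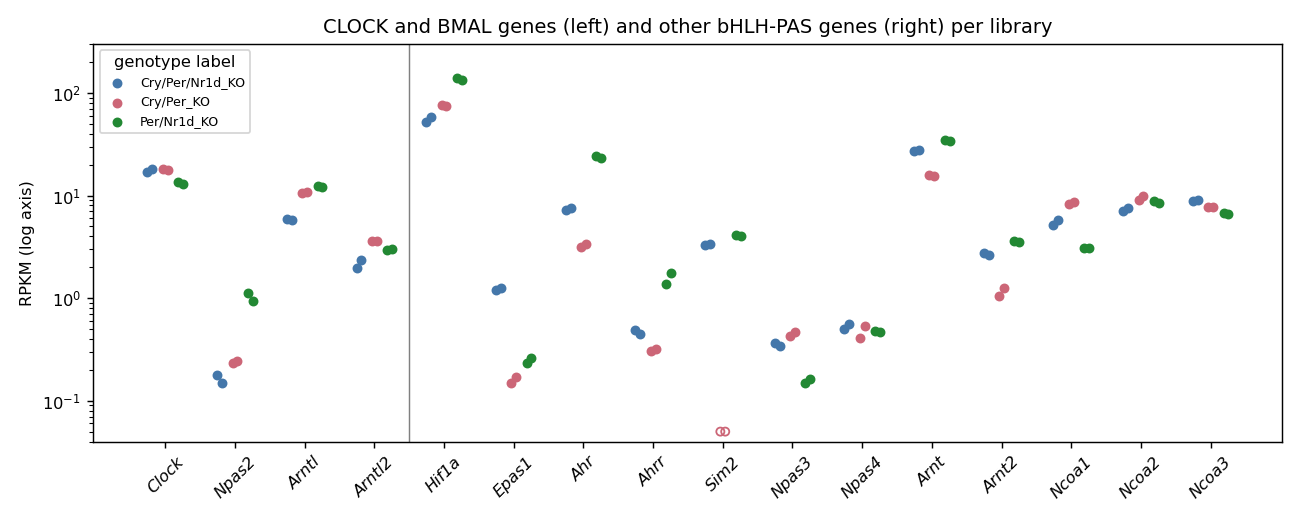
RPKM (log axis) of the 4 CLOCK and BMAL genes (left of the line) and of 12 other bHLH-PAS genes (right) in each library, coloured by genotype label; open circles at the lower edge are libraries with 0 counts. Npas2, Ahr and Ahrr are highest in Per/Nr1d_KO, and Sim2 has 0 counts in the CP-labelled pair.

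Genes with a known ROR or NR1D element, with the receptors themselves, form the group to which Arntl belongs by its promoter. Of 10 on the list, 7 were tested. Against the CPN-labelled pair, 3 were called higher and 0 lower in the CP-labelled libraries (median 0.65, all genes -0.0033, of which 7.86% were called higher), and 3 higher and 0 lower in Per/Nr1d_KO (median 0.69, all genes 0.011, with 11.3% called higher). Between Per/Nr1d_KO and the CP-labelled pair, 1 was called higher and 2 lower (median -0.17, all genes 0.035, with 15.2% called higher and 13.8% lower). Rora, an activating ROR receptor, rose with Arntl in both comparisons (log2 1.37 and 1.20, edgeR adjusted p = 8.7e-08 and 3.6e-07). Cry1 rose by 1.66 in the CP-labelled libraries, while in Per/Nr1d_KO its value was -0.13, and Nr1d1 gave 1.56 and 0.69, the latter under the fold limit. Cry1 and Nr1d1 carry mutations in some of these lines.

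Genes activated by CLOCK-BMAL1 through E-boxes moved in different directions in the comparisons where Arntl was higher. Of 16, 15 were tested. In the CP-labelled libraries, where Arntl was higher, 5 were called higher and 0 lower against the CPN-labelled pair (median 0.45), beside 7.86% of all tested genes called higher. Cry1 and Nr1d1, on both this list and the ROR and NR1D list, are 2 of these 5, so the counts of the lists are not separate. In Per/Nr1d_KO, where Arntl and Npas2 were higher, 10 were called lower and 0 higher (median -1.20), beside 9.35% of all tested genes called lower. Against the CP-labelled pair, 12 were called lower and 0 higher (median -1.84), beside 13.8%. Dbp, a PAR bZIP factor gene, differed by 1.27 in the CP-labelled libraries and by -2.20 in Per/Nr1d_KO against the CPN-labelled pair. Bhlhe41, Hlf and Cry2 differed by -4.56, -3.99 and -2.55 in Per/Nr1d_KO, and by 0.37, 0.23 and 0.22 in the other comparison with that pair. Cry1, Cry2, Per1, Per2, Nr1d1 and Nr1d2 on this list carry mutations in some or all of these lines. The part of these mutations in their RNA levels was not tested. Per/Nr1d_KO keeps the Cry genes, whose products inhibit the activators, and the part of this in the values was not tested.

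Of 11 genes for coactivators and chromatin partners of CLOCK-BMAL1, all tested, 1 was called in each comparison, beside 16.8%, 20.7% and 29.0% of all tested genes. Kmt2a, a histone methyltransferase gene, was higher in the CP-labelled libraries (0.83 against the CPN-labelled pair), and Per/Nr1d_KO fell below these by a log2 difference of -1.28. Sirt1, a deacetylase gene, was lower in Per/Nr1d_KO than in the CPN-labelled pair (-0.82). With the chromosome medians subtracted, Kmt2a was at 0.45 and -0.445 and Sirt1 at -0.79, each under the fold limit. The list medians were 0.031, -0.19 and -0.12.

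The genes beside the 4 on their chromosomes were examined next. Tbc1d8, which starts 8.26 kb beyond Npas2, also rose in Per/Nr1d_KO, by 2.04 and 1.03 against the CPN- and CP-labelled pairs (edgeR adjusted p = 1.1e-10 and 1.0e-07). Tbc1d8 was also called between the CP- and CPN-labelled pairs (1.01, edgeR adjusted p = 1.4e-06), where Npas2 at 0.53 was not. Rpl31, between them, gave 0.29 and 0.17, and Pdcl3 on the other side 0.29 and 0.34, none of which was called. Tbc1d8 and Rpl31 overlap at their ends, and the strand setting of the counting is not stated, so their reads may be shared in part. Chst10, 296 kb away, fell by 4.07 and by 5.25. The nearest neighbour of Arntl, Btbd10 at 1.5 kb, gave -0.31 and -0.087 against the CPN-labelled pair where Arntl rose. On the other side of Arntl, Tead1 and Parva were called lower in Per/Nr1d_KO than in that pair (-0.95 and -0.81). Of the 4 neighbours of Clock and the 4 of Arntl2, 0 were called in any comparison, beside 16.8%, 20.7% and 29.0% of all tested genes called in the 3 comparisons. Those of Arntl2 all had negative values in Per/Nr1d_KO against the CPN-labelled pair, from -0.43 to -0.78, where Arntl2 was at 0.47.

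**Figure D5:**
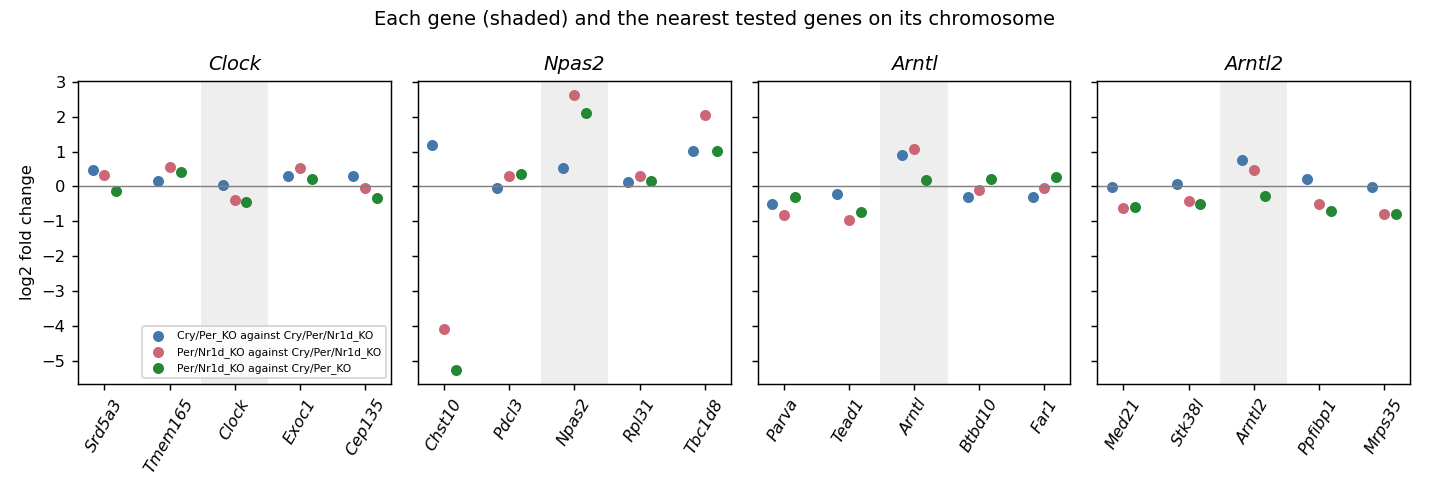
Log2 fold changes (y axis) of each gene (shaded) and of its tested chromosome neighbours (x axis, in map order) in the 3 comparisons by genotype label. Npas2 and Tbc1d8 rise together in Per/Nr1d_KO with Rpl31 at 0.29 and 0.17 between them, and the neighbours of Arntl lie below 0 in both comparisons with the CPN-labelled pair.

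Genes most like each of the 4 were found by the distance between log2 values, each centred on its own mean, over the 6 libraries. Such likeness is a description, as the points share libraries and only 3 lines. The nearest to Clock were Cald1, Septin6 and Cep55 (distances 0.042, 0.043 and 0.046), and 2695 of 11933 other genes lay within 0.5. Only 30 lay as near to Npas2, Tor3a and Inha among the nearest (0.271 and 0.291). Inha was at 34.4 to 49.1 normalized counts in the CPN- and CP-labelled libraries and at 248 and 219 in Per/Nr1d_KO. Like Npas2, Inha passed the limit for testing only through Per/Nr1d_KO, so its likeness to Npas2 is in part set by the filter. Tor3a, at 1619 to 1643 normalized counts in the CPN-labelled libraries, 2168 to 2285 in the CP-labelled ones and 10144 to 10300 in Per/Nr1d_KO, showed the Npas2 pattern at a much greater depth, and like Inha it lies on chromosome 1 with Npas2. Arntl had 260 genes within 0.5, led by Plekhg4, Smim19 and Cdc42bpg (0.074, 0.102 and 0.109). Arntl2 had 908, led by Wdcp, Zfp9 and Inpp5k (0.084, 0.129 and 0.164), and Zfp9 lies on chromosome 6 with it.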

How the data were processed

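RNA of the 3 MEF lines was poly-A selected, and stranded single-end libraries were read over 50 bases. Per the labels and methods, the authors aligned the reads with STAR (mm10), obtained gene counts from featureCounts and deposited these raw, as whole numbers. The strand setting and the handling of reads that map to several places are not given in the sources used here. The authors' DESeq2 (1.22.2) tables, with mean, log2 fold change, SE and p-values against Cry/Per/Nr1d_KO, were not used.

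Counts were analysed with edgeR 4.0.16 in R 4.3.3 (limma 3.58.1). All 6 libraries entered a single quasi-likelihood fit with TMM scaling over 3 groups, without a replicate block. Genes averaging 100 or more normalized counts (11934) were tested, and called at an adjusted p under 0.05 and a log2 difference beyond 0.81. The SE is the log2 fold change divided by the square root of F. The biological coefficient of variation was 0.0393. P-values measure the spread between RNA preparations of a line. Among the 4 genes, counting error is small except for Npas2. It is also not small for other genes with low counts, such as Bhlhe41 in Per/Nr1d_KO (18 and 31 raw counts). Limits for a count of 0 cover counting error only. Symbols matched 25275 of 27179 IDs. Gene coordinates and promoters came from RefSeq (GRCm38), and strands and exon lengths of genes from GENCODE.

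The members, lists and tests were chosen with earlier results of these data known. Named were the 4 genes, up to 4 called genes per list with the largest change, the 3 genes most alike and up to 2 tested neighbours on each side. Arnt, Arnt2, Npas4, Lum and Thy1 were added after their values were seen. Some genes that this rule names are not reported here. Alternatives were DESeq2 1.42.0, the study's adjusted p limit of 1e-22, median-of-ratios scaling, other filters, no fold limit, glmTreat, the compared groups alone, a replicate block, each library left out, exchanged labels, chromosome medians and other lengths. The scripts were tested on simulated data. RT-qPCR and Western blots were not analysed here.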

Additional observations from a re-analysis of the deposited data

How the results depend on the processing

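DESeq2, median-of-ratios scaling, the lower or absent filter, the compared groups alone and the replicate block changed no call of the 4 genes. The replicate numbers did not pair the libraries (correlations of deviations -0.21, -0.10 and -0.024), and with the replicate block Npas2 differed by 2.64 and 2.10 in Per/Nr1d_KO and 2002, 2468 and 3457 genes were called against 2006, 2468 and 3457 without it. At the study's adjusted p limit, Npas2 lost its call against the CP-labelled pair (2.08, DESeq2 adjusted p = 3.8e-16), and with glmTreat Arntl lost its call between the conflicting pairs (0.89). With glmTreat 1411 genes were called there. Leaving out each library, Clock between these pairs ran from -0.00057 to 0.091, and Arntl2 from 0.61 to 0.88. With chromosome medians subtracted, which was chosen with earlier results known, Clock there was -0.045 and Arntl2 in Per/Nr1d_KO against the CP-labelled pair was 0.14.

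Exchanged labels gave -0.045 (Clock), -0.53 (Npas2), -0.89 (Arntl) and -0.74 (Arntl2) between the conflicting pairs. For Arntl, the exchanged sign is the direction that the study reports between these lines. In Per/Nr1d_KO against Cry/Per/Nr1d_KO, Arntl was then 0.17 and lost its call and Arntl2 was -0.27. Against Cry/Per_KO, Arntl was 1.07 and gained its call and Arntl2 was 0.47. In the order of comparisons used in the report, the exchanged log2 differences of ratios were -0.50, 2.55 and 3.05 (Npas2 to Clock), 0.80, -0.43 and -1.23 (ratio of sums), and 0.15 and -0.60 (Arntl2 to Arntl, first and last). The ratio of sums differed by -1.23 and -0.43 in Per/Nr1d_KO, by -1.29 and -0.48 without division by length, and by -1.18 and -0.39 with all annotated exons, a length chosen after the data were seen.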

Other observations

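The other 3 bHLH-PAS genes on the list were too low for testing. Sim1, a hypothalamic regulator, gave 121 and 120 normalized counts in the CPN-labelled libraries, 92.4 and 73.6 in the CP-labelled ones and 0 in both Per/Nr1d_KO libraries. Sim1 thus had 0 counts in the line in which Npas2 was highest, while its paralog Sim2 had 0 in the CP-labelled libraries. Npas1 ranged from 17.8 to 47.1 normalized counts and Hif3a from 0 to 6.21 over the 6 libraries.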
